A study of Mus musculus with 22 samples.

Results

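The anaphase-promoting complex (APC/C) and the SCF complexes are the ubiquitin ligases that mark cell cycle proteins for destruction, and 10 genes that set their activity were followed here: Cdc20, Fzr1, Fbxo5, Ube2c, Ube2s, Pttg1, Skp2, Cks1b, Cks2 and Ccnf. They were chosen by name, and all 10 of the 10 named genes occurred among the 11208 genes of the deposited table. RNA was measured in NIH/3T3 cells, a line of mouse embryo fibroblasts, with a doxycycline-inducible construct integrated into the genome, which either encoded E2F1, a transcription factor (cells called the E2F1 line), or was an empty vector (the EV line). Every group was first starved for 48 h in 0.25% serum. The E2F1 line was then collected at 0, 2, 6 and 12 h of 500 ng/ml doxycycline. The EV line was collected at these times of doxycycline too, and also at 2, 6 and 12 h of 10% serum without doxycycline in its label. That gave 11 groups of 2 libraries, 22 in all, and the serum comparisons used the EV 0 h libraries as their start.

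The APC/C is switched on by one of a pair of activator subunits. CDC20 activates it at the metaphase to anaphase transition, when securin (the product of Pttg1) and cyclin B are destroyed and the sister chromatids part. CDH1 (the product of Fzr1) activates it from late mitosis through G1, when its targets must stay low. EMI1 (Fbxo5) inhibits the complex from the G1/S transition onward, and UBE2C and UBE2S are the conjugating enzymes that start and extend its ubiquitin chains. SCF complexes read their targets through F-box proteins. SKP2, together with its cofactor CKS1 (Cks1b), directs the destruction of the CDK inhibitor p27, CKS2 is the second small CDK-binding protein of that family, and cyclin F (Ccnf) is itself an F-box protein. In cultured fibroblasts the RNAs of most of these genes are known to be low at rest and to return as cells proceed toward division.

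The libraries held 34014608 to 46057140 normalized counts, and the lowest mean of any gene in the table was 99.6. The lowest value of any of the 10 genes in a library was 131, for Pttg1 in EV 12 h doxycycline replicate 1. Of the fibroblast markers listed, 12 of 12 were in the table, with a summed level of 696764 to 1427417 per library. None of 6 epithelial, 4 leukocyte, 3 endothelial and 3 muscle markers was in it. Nothing in the labels says that the 2 libraries of a group came from separate cultures, so the p-values measure the spread between these libraries only. In RNA from bulk cultures, fewer cells that express a gene and less RNA per cell cannot be told apart.

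Some libraries stood apart. Among 10 genes whose level in the E2F1 line exceeded that of the EV line 8-fold or more at 0, 6 and 12 h, the median position between the lines (EV 0, E2F1 1) was 0.479 and 0.450 in the EV 2 h doxycycline libraries and 0.354 and 0.388 in the 2 h serum libraries. In the E2F1 2 h libraries it was 0.890 and 0.871. The 2 h values are therefore given with this limit, and leaving the 4 doxycycline 2 h libraries out of the fit changed the calls of 2 member results, both named below. The replicates also differed within the EV line. All 10 genes were higher in replicate 2 than in replicate 1 of the EV groups at 0, 6 and 12 h of doxycycline and at 6 h of serum, with median ratios of 1.52, 1.36, 1.35 and 1.26. Over all genes the ratios had medians of 1.01, 0.995, 0.998 and 0.999. The 20 APC/C substrate genes moved with them: their mean log2 level was 9.78 and 10.63 in EV 0 h replicates 1 and 2, 9.34 and 10.22 at 6 h, 8.63 and 9.11 at 12 h, and 9.50 and 10.17 at 6 h of serum. The cause of this replicate difference was not tested. Its effect on the calls of the 10 genes was followed by leaving out single libraries and with replicate blocks, as given below.

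The mouse E2f1 gene stood at 1703 and 1637 normalized counts in the E2F1 line before doxycycline, at 3806 and 3602 at 6 h and at 2683 and 2845 at 12 h. The 6 and 12 h pairs lay above the 0 h pair, and the 2 h pair, at 1535 and 1755, overlapped it. In the EV line E2f1 stood at 1635 and 1655 at 0 h, and after 12 h of serum it reached 4615 and 4247, above every library of the E2F1 line. With doxycycline the EV line had at most 1655. Whether the construct is counted under this gene was not tested.

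Sequence near the transcription starts was read because the 10 genes fall into groups that moved at different times. Promoter windows from RefSeq (GRCm38.p6, 250 bases before to 50 after the start) matched 10 of 10 genes, with 11 windows because Skp2 has 2 starts. The letters TTTGAA, the cell cycle genes homology region (CHR), were searched on both strands. They occurred in 6 of 10 genes, against 17.9% of 32851 windows. Within the 40 bases before the start they occurred in 4 of 10 genes, against 2.04% of all windows. The 30 bases around the match are shown for those 4 genes and for Fbxo5 and Skp2, 5′ to 3′ on the strand of the gene, with the match in capitals (TTCAAA where it lies on the opposite strand).
Cdc20: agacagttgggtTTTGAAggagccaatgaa
Ube2c: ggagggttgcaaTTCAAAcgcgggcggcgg
Cks1b: gcgggcggtgtgTTTGAAagcgaggccaaa
Ccnf: gctcccggcgcgTTTGAAaacggggcgggg
Fbxo5: ttgggcaccaaaTTCAAAgattttaaaagt
Skp2: ctgatttgaataTTTGAAgtcataaaggag
The windows lie at chr4:118437344-118437373 on the minus strand for Cdc20, chr2:164769888-164769917 on the plus strand for Ube2c, chr3:89418291-89418320 (minus) for Cks1b, chr17:24251406-24251435 (minus) for Ccnf, chr10:5805445-5805474 (minus) for Fbxo5 and chr15:9155463-9155492 (minus) for Skp2. The match began 18 bases before the RefSeq start in Cdc20, 29 in Ube2c, 17 in Cks1b and 14 in Ccnf. In Skp2 it began 55 bases before the start, with another match 63 bases before, and in Fbxo5 it began at the base 4 of the transcript. GENCODE M21 models begin further upstream than RefSeq by 9 bases for Cdc20, 31 for Ube2c, 92 for Cks1b, 75 for Ccnf and 135 for Fbxo5, so the position relative to the start depends on the annotation. The letters CCAAT, on both strands, occurred in 8 of 10 genes, against 37.4% of all windows. Ube2s and Pttg1 had neither CHR nor CCAAT letters. Their GENCODE models begin 250 and 270 bases upstream of the RefSeq start, so their windows hold no sequence before the GENCODE start. The E2F octamers searched (TTTCCCGC, TTTCGCGC, TTTGCCGC and TTTGGCGC, both strands) occurred in 0 of 10 genes, against 2.26% of all windows, which says only that these letters are not in these windows.

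Doxycycline in the E2F1 line raised the 10 genes in 2 steps. At 6 h the inhibitor Fbxo5, the F-box genes Ccnf and Skp2, the chain-extending enzyme Ube2s and the activator Fzr1 had risen. By 12 h all 10 had risen, and the log2 changes ran from 0.62 for Cks1b to 3.26 for Ccnf. In limma, 5 of 10 were called higher at 6 h, against 28.8% of all genes, and 0 lower, against 22.9%. At 12 h 10 of 10 were called higher, against 31.8%. Their median log2 change was 0.40 at 6 h and 1.68 at 12 h, beside -0.03 and -0.02 over all genes. Quantile normalization and equal totals moved the median of all genes at 6 h by -0.11 and -0.12, and the 5 genes were called higher under both. At 2 h 0 were called, against 1.86% of all genes in either direction, and 3 had an unadjusted p under 0.05. Log2 changes are on the log2(normalized count + 1) scale, and a gene was called at a limma p below 0.05 after Benjamini-Hochberg adjustment over all 11208 genes.

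**Figure D1:**
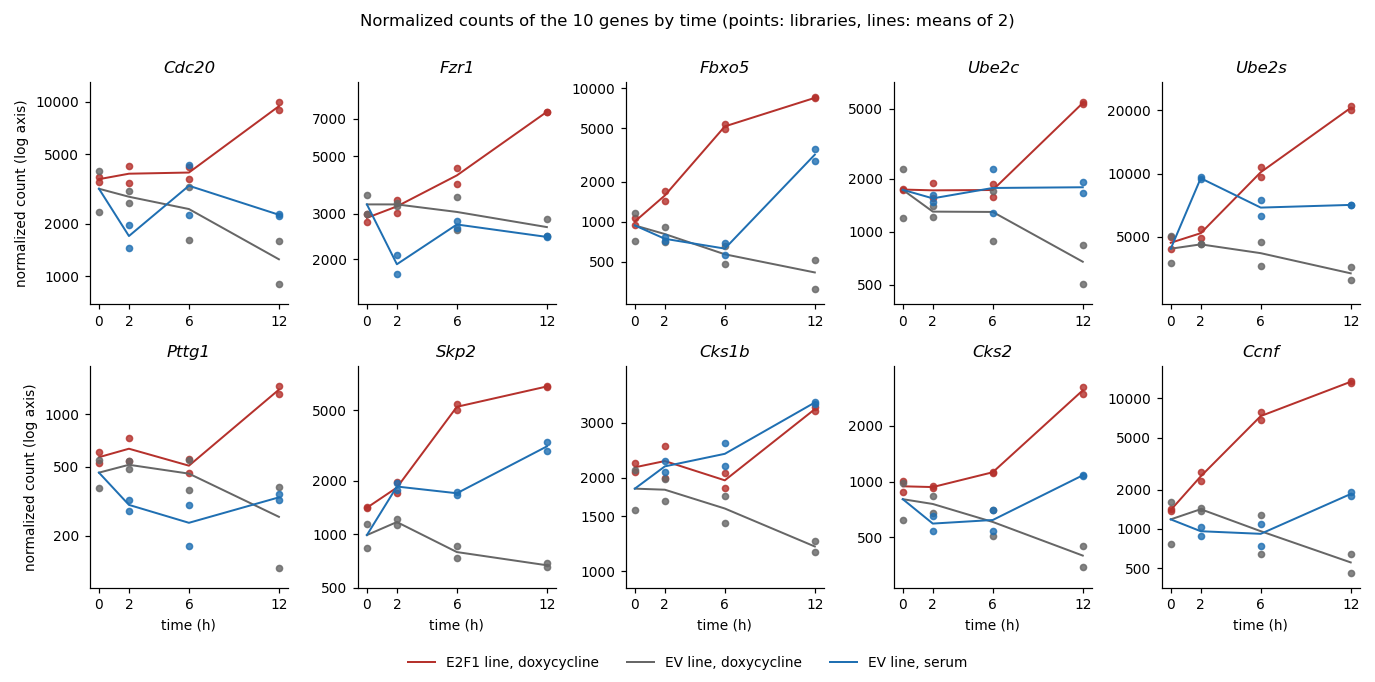
Normalized counts (log axis) of each gene against time in hours. Points are libraries and lines join the means of 2 libraries for the E2F1 line with doxycycline (red), the EV line with doxycycline (grey) and the EV line with serum (blue, starting from the EV 0 h mean). Fbxo5, Skp2 and Ccnf stand above 0 h by 6 h in red, while Cdc20, Ube2c and Pttg1 overlap their 0 h libraries at 6 h and stand above them at 12 h.

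Fbxo5 (ENSMUSG00000019773.7, chromosome 10, 5799160 to 5805600 in GRCm38) encodes the APC/C inhibitor EMI1. In the E2F1 line it stood at 1067 and 943 normalized counts at 0 h, 1442 and 1707 at 2 h, 5428 and 4936 at 6 h, and 8540 and 8411 at 12 h. The groups did not overlap at any of these times, and the 12 h libraries were the highest. Its log2 change was 2.37 at 6 h (SE 0.23, adjusted p 9.65e-08 in limma) and 3.08 at 12 h (SE 0.23, adjusted p 2.94e-09). In the EV line with serum it stood at 773 and 719 at 2 h, 565 and 695 at 6 h, and 3538 and 2830 at 12 h, against 714 and 1164 at 0 h. The serum libraries thus lay above both 0 h libraries at 12 h only, with a log2 change of 1.79 (SE 0.23, adjusted p 1.79e-06 in limma). The E2F1 line at 6 h was already above the serum libraries of 12 h.

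Ccnf (ENSMUSG00000072082.7, chromosome 17, 24222198 to 24251484) encodes cyclin F, the founding F-box protein, and had the largest 12 h change of the 10. It stood at 1428 and 1365 at 0 h, 2314 and 2745 at 2 h, 7835 and 6808 at 6 h, and 13609 and 13198 at 12 h in the E2F1 line. The groups did not overlap. Its log2 change was 2.39 at 6 h (SE 0.29, adjusted p 2.05e-06 in limma) and 3.26 at 12 h (adjusted p 3.05e-08). Under serum it stood at 1915 and 1791 at 12 h, just above the EV 0 h libraries at 761 and 1608. That serum change was 0.74 (adjusted p 0.0322 in limma), but its adjusted p was 0.563 without EV 0 h replicate 1 and 0.0718 under quantile normalization.

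Skp2 (ENSMUSG00000054115.11, chromosome 15, 9111985 to 9155425), the F-box subunit that reads p27, was the member with most of its 12 h change in place at 6 h. It stood at 1398 and 1423 at 0 h, 1700 and 1965 at 2 h, 5449 and 5010 at 6 h, and 6788 and 6828 at 12 h. Its log2 change was 1.89 at 6 h (SE 0.12, adjusted p 5.46e-10 in limma) and 2.27 at 12 h (adjusted p 7.78e-11). Under serum the rise was visible from the first time: 1937 and 1778 at 2 h, 1672 and 1733 at 6 h, and 3291 and 2962 at 12 h, against 838 and 1141 at 0 h. All 6 serum libraries lay above both 0 h libraries, with log2 changes of 0.92, 0.80 and 1.67 (adjusted p 1.78e-06, 1.27e-05 and 2.05e-09 in limma). Skp2 was also the 1 member of 10 that differed between the lines at 0 h, by 0.53 (adjusted p 0.00713 in limma, against 8.86% of all genes called higher). That call was lost without EV 0 h replicate 1 (adjusted p 0.125).

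Ube2s (ENSMUSG00000060860.8, chromosome 7, 4794546 to 4812590), the enzyme that lengthens ubiquitin chains on the APC/C, rose in nearly equal steps. It stood at 4984 and 4397 at 0 h, 4964 and 5453 at 2 h, 10722 and 9601 at 6 h, and 20172 and 20969 at 12 h. Its log2 change was 1.12 at 6 h (SE 0.13, adjusted p 1.17e-06 in limma) and 2.14 at 12 h (adjusted p 3.9e-10). Serum gave it a different course, at 9616 and 9414 after 2 h, 6297 and 7495 after 6 h, and 7117 and 7088 after 12 h, against 3750 and 5037 at 0 h. The 2 h libraries were the highest of the serum series, with a log2 change of 1.13 (adjusted p 3.5e-07 in limma), followed by 0.66 and 0.71 at 6 and 12 h. Scaling to equal library totals moved the median of all genes by -0.37 at 2 h of serum and -0.08 at 12 h. The size of the 2 h lead thus depends on the scaling. Ube2c (ENSMUSG00000001403.13, chromosome 2, 164769898 to 164778822), the enzyme that places the first ubiquitins, did not share the course of Ube2s. It stood at 1736 and 1739 at 0 h, 1869 and 1585 at 6 h, and 5459 and 5344 at 12 h in the E2F1 line. The 6 h libraries lay on both sides of the 0 h pair, and the 12 h change was 1.64 (SE 0.31, adjusted p 0.000159 in limma). Under serum Ube2c had log2 changes of -0.09, 0.05 and 0.12 at 2, 6 and 12 h (adjusted p 0.808, 0.892 and 0.748 in limma), and the last was -0.03 under quantile normalization.

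Of the activators, only Fzr1 was called higher at 6 h in the E2F1 line, both were at 12 h, and neither was under serum. The log2 change of Cdc20 at 6 h was 0.12 (SE 0.32), and the genes were not tested against each other. Fzr1 (ENSMUSG00000020235.16, chromosome 10, 81366222 to 81378516), which encodes CDH1, stood at 2783 and 3006 at 0 h, 4522 and 3925 at 6 h, and 7426 and 7444 at 12 h. Its groups did not overlap, and its log2 changes were 0.54 and 1.36 (SE 0.13, adjusted p 0.00153 and 4.33e-08 in limma). Under serum Fzr1 fell to 2080 and 1751 at 2 h and stood at 2453 and 2432 at 12 h, against 2992 and 3533 at 0 h. Both serum pairs lay below the 0 h pair, by log2 changes of -0.77 (adjusted p 2.39e-05 in limma) and -0.41 (adjusted p 0.00764). The 12 h call was lost without EV 0 h replicate 2 (adjusted p 0.0967). Cdc20 (ENSMUSG00000006398.15, chromosome 4, 118432901 to 118437352) stood at 3722 and 3481 at 0 h, 4233 and 3628 at 6 h, and 8897 and 9933 at 12 h in the E2F1 line. Its 6 h libraries overlapped the 0 h range, and the 12 h change was 1.38 (SE 0.32, adjusted p 0.00116 in limma). Under serum Cdc20 stood at 1961 and 1446 at 2 h, below both 0 h libraries at 2331 and 4019, a log2 change of -0.86 (adjusted p 0.0235 in limma). That call was lost without EV 0 h replicate 2 (adjusted p 0.272) and without serum 2 h replicate 2 (adjusted p 0.168). At 12 h of serum Cdc20 stood at 2219 and 2289, a log2 change of -0.44 (adjusted p 0.235 in limma).

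Pttg1 (ENSMUSG00000020415.16, chromosome 11, 43420250 to 43426251), the securin gene, had values from 131 to 1452 over all libraries. In the E2F1 line it stood at 526 and 605 at 0 h, 460 and 551 at 6 h, and 1311 and 1452 at 12 h. The 12 h pair lay above all the others, with a log2 change of 1.29 (SE 0.35, adjusted p 0.00385 in limma). Under serum it stood at 174 and 301 at 6 h, below both 0 h libraries at 377 and 545. That log2 change of -0.98 (adjusted p 0.0192 in limma) was not called under quantile normalization (adjusted p 0.0795), nor without EV 0 h replicate 2 (0.151) or without serum 6 h replicate 1 (0.216).

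The small CDK-binding proteins differed from each other. Cks2 (ENSMUSG00000062248.5, chromosome 13, 51645232 to 51650660) stood at 1011 and 876 at 0 h, 1117 and 1131 at 6 h, and 2989 and 3247 at 12 h in the E2F1 line. The change was 0.26 at 6 h (adjusted p 0.289 in limma) and 1.73 at 12 h (SE 0.20, adjusted p 6.5e-07). Cks1b (ENSMUSG00000028044.6, chromosome 3, 89415472 to 89418383) stood at 2231 and 2085 at 0 h, 2075 and 1845 at 6 h, and 3270 and 3365 at 12 h, with a 12 h change of 0.62 (SE 0.14, adjusted p 0.000903 in limma). Under serum the order was the other way. Cks1b reached 3511 and 3459 at 12 h, above the E2F1 12 h libraries, with a log2 change of 0.93 (adjusted p 1.36e-05 in limma). Cks2 reached 1086 and 1078, with a log2 change of 0.47 (adjusted p 0.0449) that was lost under 5 of the other settings and in 3 fits that left out a single library. The adjusted p of these ran from 0.0561, without the 4 doxycycline 2 h libraries, to 0.603, without EV 0 h replicate 1.

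The step from 6 to 12 h in the E2F1 line held rises of all 10 genes, against 15.1% of all genes called higher. The largest were those of Ube2c (1.65), Cks2 (1.47), Pttg1 (1.45) and Cdc20 (1.26). The smallest were those of Skp2 (0.38), Fbxo5 (0.71), Cks1b (0.76) and Fzr1 (0.82), with Ccnf at 0.88 and Ube2s at 1.02. Adjusted p-values in limma ran from 2.16e-05 for Ube2s to 0.0264 for Ccnf. Of the log2 change reached at 12 h, 83.2% was present at 6 h for Skp2, 76.9% for Fbxo5, 73.2% for Ccnf, 52.3% for Ube2s and 39.8% for Fzr1. The share was 14.8% for Cks2 and 8.85% for Cdc20, and below 0 for Ube2c, Pttg1 and Cks1b. The later rises of Fbxo5, Skp2 and Ccnf depended on single libraries: leaving out 1 library of the E2F1 6 or 12 h groups gave adjusted p of 0.0557 to 0.111 for Fbxo5 (all 4 libraries), up to 0.132 for Skp2 (3 of 4) and 0.0615 to 0.133 for Ccnf (all 4). Ccnf also missed the threshold without a mean-variance trend (adjusted p 0.0518).

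**Figure D2:**
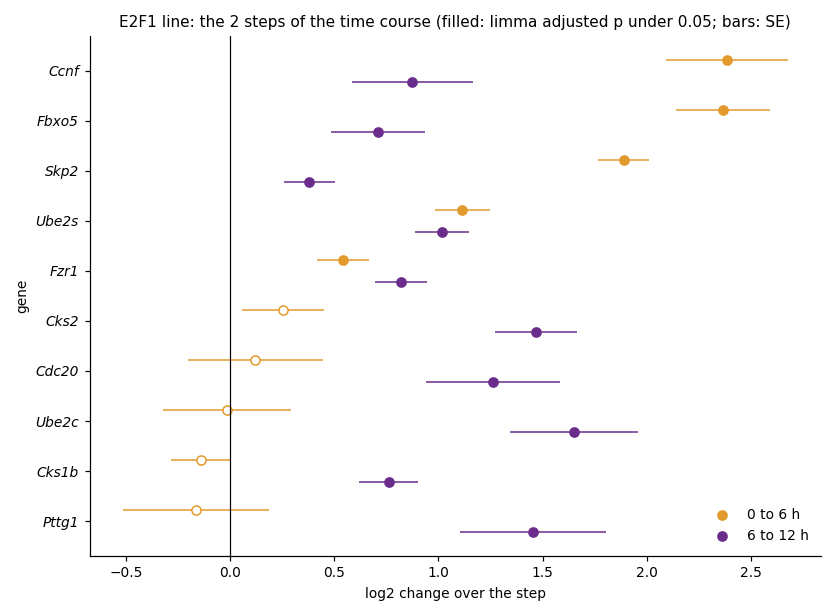
Log2 change of each gene over 0 to 6 h (orange) and over 6 to 12 h (purple) in the E2F1 line. Bars are SE from limma and filled points passed the threshold. Ccnf, Fbxo5 and Skp2 have their larger change in the first step, and Cks2, Cdc20, Ube2c, Pttg1 and Cks1b have no called change in it.

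At 2 h of doxycycline in the E2F1 line Ccnf, Fbxo5 and Skp2 had the largest changes of the 10, at 0.85, 0.64 and 0.37, and in each the 2 h libraries lay above the 0 h libraries. None passed in limma (adjusted p 0.157, 0.173 and 0.13). When the fit held only the E2F1 0 and 2 h libraries they passed, at adjusted p of 0.000305, 0.00513 and 0.0426. Subtracting the 2 h change of the EV line left 0.49, 0.83 and 0.11 (adjusted p 0.888, 0.488 and 0.946), and 0 of the 10 passed, against 0.143% of all genes in either direction.

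In the EV line the 10 genes were uncalled at 2 and 6 h of doxycycline, and levels were lower at 12 h. No group was kept in low serum without doxycycline beyond 0 h. Doxycycline was thus not separated from the longer time in low serum, and the cause of the lower levels was not tested. At 2 h 0 of 10 were called, against 7.35% of all genes in either direction, with 1 at an unadjusted p under 0.05. At 6 h 0 were called, against 0.134%, with 2 at an unadjusted p under 0.05, although all 10 log2 changes were below 0. At 12 h 6 of 10 were called lower, against 3.42% of all genes, and 0 higher, against 0.749%. Cdc20 stood at 907 and 1601 at 12 h against 2331 and 4019 at 0 h, and its log2 change was -1.34 (SE 0.32, adjusted p 0.0231 in limma). Ube2c stood at 505 and 844 against 1193 and 2269, a change of -1.33 (adjusted p 0.0181 in limma). In both genes the 12 h pair lay below the 0 h pair. Fbxo5 fell from 714 and 1164 to 316 and 519, a change of -1.17 (adjusted p 0.00688 in limma). Cks2, Cks1b and Skp2 had changes of -0.98, -0.60 and -0.55 (adjusted p 0.00844, 0.019 and 0.0141 in limma). Ccnf, Pttg1, Ube2s and Fzr1 had changes of -1.02, -1.01, -0.38 and -0.29 and were not called (adjusted p 0.0579, 0.124, 0.124 and 0.239). In 9 of 10 genes the 12 h libraries lay below both 0 h libraries, and Pttg1 overlapped. The share of all genes separated in this way was not counted. The number called rests on single libraries. It was 0 without EV 0 h replicate 2, 0 without EV 12 h replicate 1, 8 without EV 0 h replicate 1 and 0 with only the groups compared. These are the groups in which replicate 2 was higher for all 10 genes.

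Next, the difference between the lines was tested. After subtracting the change of the EV line under doxycycline, 5 of 10 genes were higher at 6 h, against 22.2% of all genes, and 10 of 10 at 12 h, against 27.3%. At 6 h the differences were 3.06 for Fbxo5, 2.67 for Ccnf, 2.19 for Skp2, 1.18 for Ube2s and 0.65 for Fzr1. That of Fzr1 was lost without EV 6 h replicate 1 (adjusted p 0.063 in limma). At 12 h they ran from 1.22 for Cks1b (SE 0.20, adjusted p 5.66e-05 in limma) to 4.28 for Ccnf (SE 0.41, adjusted p 1.7e-07). The median difference over the 10 was 2.72 at 12 h, beside -0.02 over all genes.

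Serum gave a mixed response. At 2 h 2 of 10 were called higher (Ube2s and Skp2), against 37.5% of all genes, and 2 lower (Fzr1 and Cdc20), against 33.5%. At 6 h 3 were higher (Skp2, Ube2s and Cks1b), against 36.5%, and 2 lower (Pttg1 and Fbxo5), against 31.0%. At 12 h 6 were higher (Fbxo5, Skp2, Cks1b, Ccnf, Ube2s and Cks2), against 36.0%, and 1 lower (Fzr1), against 29.7%. Of these shares, that called higher at 12 h was above the share of all genes and the others were below it. That excess rested in part on Ccnf and Cks2. Their 12 h calls were lost under quantile normalization (adjusted p 0.0718 and 0.0708 in limma) and under equal totals (0.0502 and 0.0918). Scaling to equal library totals moved the median of all genes by -0.37 at 2 h and -0.21 at 6 h, and under it 5 were lower at 2 h and 4 at 6 h. The counts called lower also rested on single libraries: without EV 0 h replicate 1 they were 5 at 2 h and 5 at 6 h, and without EV 0 h replicate 2 they were 1 and 0. Without serum 2 h replicate 2 the 2 h count was 1, and without serum 6 h replicate 1 the 6 h count was 0. The 6 h calls of Fbxo5 (log2 change -0.54, adjusted p 0.0425 in limma) and Cks1b (0.38, adjusted p 0.0228) were lost under quantile normalization (adjusted p 0.0671 and 0.186). Without EV 0 h replicate 2 they had adjusted p of 0.518 for Fbxo5, and without EV 0 h replicate 1 of 0.345 for Cks1b. From 6 to 12 h of serum 5 of 10 rose, against 19.3% of all genes: Fbxo5 by 2.33, Ccnf by 1.04, Skp2 by 0.87, Cks2 by 0.81 and Cks1b by 0.55. Without serum 6 h replicate 1 the rises of Ccnf and Cks1b were not called (adjusted p 0.0971 and 0.0524 in limma).

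The 12 h responses to E2F1 and to serum were then compared as a difference of changes, with each line set against its own 0 h libraries. The E2F1 line had the larger change in 9 of 10 genes, against 25.0% of all genes. The differences were 2.52 for Ccnf, 1.83 for Cdc20, 1.77 for Fzr1, 1.74 for Pttg1, 1.52 for Ube2c, 1.43 for Ube2s, 1.28 for Fbxo5, 1.26 for Cks2 and 0.60 for Skp2. Their adjusted p in limma ran from 3.24e-07 for Fzr1 to 0.00763 for Skp2. Those of Ube2c and Skp2 missed the threshold without EV 0 h replicate 2 (0.0536 and 0.0571). For Cks1b the difference was -0.31 (SE 0.20, adjusted p 0.205 in limma), and 0.0373 without EV 0 h replicate 2. At 6 h 5 of 10 were higher in the E2F1 line, against 30.3%: Fbxo5 by 2.91, Ccnf by 2.68, Skp2 by 1.09, Fzr1 by 0.80 and Ube2s by 0.46. Cks1b was lower by 0.52 on the log2 scale (-0.52, adjusted p 0.0312 in limma), against 27.6% of all genes called lower. The 6 h calls of Ube2s (adjusted p 0.0417 in limma) and Cks1b were lost under several alternatives. Ube2s had an adjusted p of up to 0.256, without EV 0 h replicate 2, and of 0.0577 without the 4 doxycycline 2 h libraries. Cks1b had one of up to 0.192, without EV 0 h replicate 1.

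**Figure D3:**
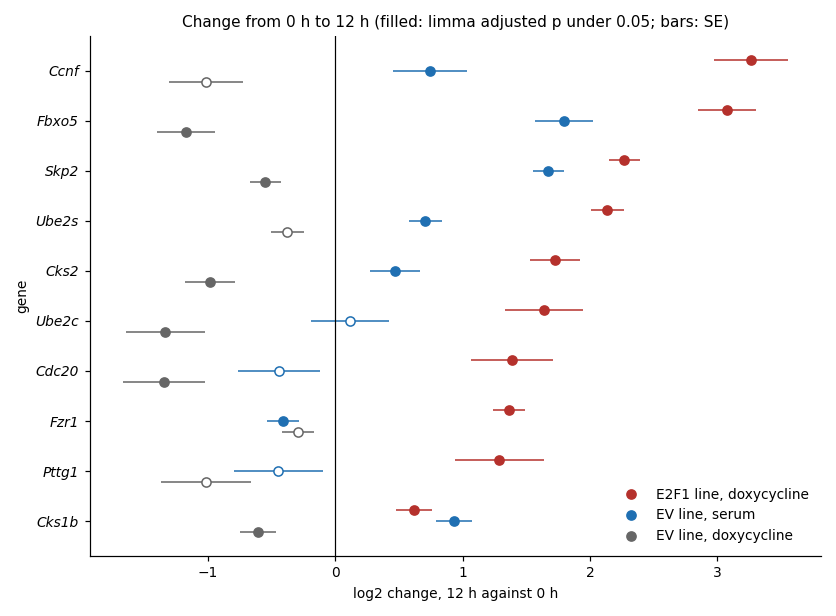
Log2 change from 0 to 12 h of each gene in the E2F1 line with doxycycline (red), the EV line with serum (blue) and the EV line with doxycycline (grey). Bars are SE from limma and filled points passed the threshold. All 10 red points lie above 0, all 10 grey points lie below 0, and the blue points of Cdc20, Fzr1 and Pttg1 lie below 0.

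Ratios between partner genes within a library, taken per kilobase of annotated exon, showed which partners changed unequally. The ratio of Fbxo5, the inhibitor, to Fzr1, the G1 activator, was 0.859 and 0.703 in the E2F1 line before doxycycline, 2.69 and 2.82 at 6 h, and 2.58 and 2.53 at 12 h. It was 3.23 and 2.61 after 12 h of serum, against 0.535 and 0.738 in the EV line at 0 h and 0.287 and 0.405 after 12 h of doxycycline there. Both stimuli thus ended with ratios of 2.53 or more, the E2F1 line with higher levels of both genes and serum with a higher Fbxo5 and a lower Fzr1. The ratio of Skp2 to its cofactor gene Cks1b rose from 0.0896 and 0.0976 to 0.375 and 0.388 at 6 h in the E2F1 line, and was 0.134 and 0.122 after 12 h of serum. The ratio of Cks2 to Cks1b was 1.49 and 1.57 at 12 h in the E2F1 line and 0.503 and 0.507 after 12 h of serum. For Ube2c to Ube2s the ratio went from 0.689 and 0.782 to 0.345 and 0.326 at 6 h in the E2F1 line. In the EV line it went from 0.629 and 0.891 at 0 h to 0.332 and 0.311 at 2 h of serum. After 12 h of doxycycline there it was 0.32 and 0.465. No test was made of these ratios.

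**Figure D4:**
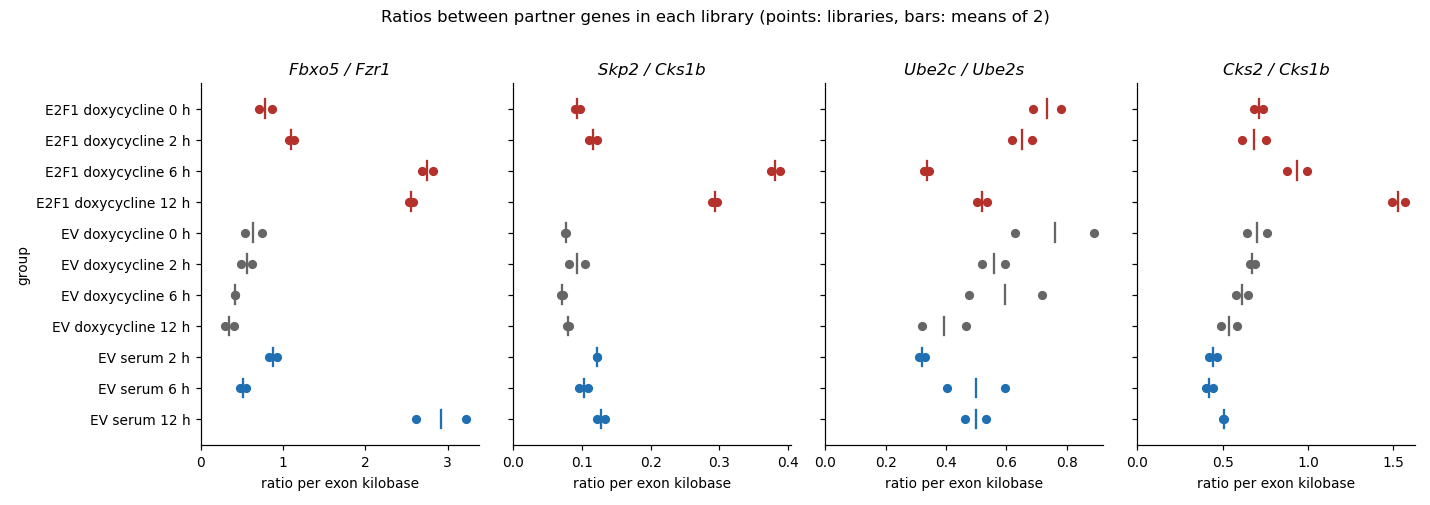
Ratio of normalized counts per exon kilobase between partner genes in each library, for the 11 groups. Points are libraries and bars are means of 2. Fbxo5 to Fzr1 is at 2.53 or more in the E2F1 line at 6 and 12 h and after 12 h of serum, while Skp2 to Cks1b is at 0.290 or more in the E2F1 line at 6 and 12 h and at 0.134 or less in every other library.

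The order of the 11 groups was alike in its top for most members. The E2F1 12 h group had the highest mean in 9 of 10 genes, and its libraries lay above those of the next group in all 9. How often this holds among all genes was not counted. For Cks1b the serum 12 h group was first and the E2F1 12 h group second, and these did not overlap. The EV 12 h doxycycline group had the lowest mean in 8 genes, with Fzr1 lowest at 2 h of serum and Pttg1 at 6 h of serum. The lowest pair of groups overlapped for Cdc20, Fbxo5 and Pttg1. Between these ends neighbouring groups mostly overlapped: for Cdc20 the 8 groups from E2F1 6 h to serum 12 h each overlapped the next. For Skp2, by contrast, E2F1 12 h, E2F1 6 h and serum 12 h followed each other without overlap.

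Over the 11 group means on the log2 scale, which share the same libraries, the gene with the closest course by Pearson correlation was Ccnb1 for Cdc20 (0.981), Nusap1 for Fzr1 (0.964), Ercc6l for Fbxo5 (0.992) and Tpx2 for Ube2c (0.973). It was Ywhah for Ube2s (0.988), Ccnb2 for Pttg1 (0.961), 2310022A10Rik for Skp2 (0.989) and Lsm4 for Cks1b (0.973). For Cks2 it was Spag5 (0.994) and for Ccnf Lmnb1 (0.979). By Spearman correlation other genes came first, such as Ckap5 for Cdc20 (0.991), Dnajc9 for Fbxo5 (1.000) and Ccna2 for Ccnf (0.982). Among the members themselves the closest pair was Fbxo5 and Ccnf (0.954), and the least alike were Fzr1 and Cks1b (0.290). These are descriptions of 11 points and carry no test.

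Genes of the rest of the ubiquitin machinery were called in both directions at 12 h. The shares of all genes called higher and lower were 31.8% and 29.7% in the E2F1 line, and 36.0% and 29.7% under serum. Of the 14 core APC/C subunit genes, all in the table, 6 were called higher and 3 lower at 12 h in the E2F1 line (median log2 change 0.16), and 5 higher and 3 lower at 12 h of serum (median 0.13). Anapc15, a subunit that helps the complex turn over its checkpoint inhibitor, rose by 1.60 and 1.20 in these comparisons (adjusted p 9.67e-06 and 0.000182 in limma). Anapc2, the cullin-like scaffold subunit, fell by 0.32 in the E2F1 line (-0.32) and Anapc13 by 0.67 under serum (-0.67). With doxycycline, EV cells had Anapc13 changes of -0.61, -0.48 and -0.40 at 2, 6 and 12 h. Of these, that at 2 h was called (adjusted p 0.0208 in limma). Before any stimulus Anapc13 was also lower in E2F1 than in EV cells (-0.67, adjusted p 0.00703 in limma). These comparisons share the EV 0 h libraries, and the lower level was thus not limited to serum. Under quantile normalization the split in the E2F1 line was 4 higher and 5 lower, and under serum 2 and 4. Of 16 SCF core genes and other F-box genes, 15 were in the table, and 2 were higher and 3 lower in the E2F1 line against 7 higher and 3 lower under serum. Fbxl14 rose by 1.26 (adjusted p 8.46e-10 in limma) and Fbxo31 had -0.72 in the E2F1 line, while Ube2m, the enzyme that conjugates NEDD8 to cullins, had 0.66 under serum.

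Of 16 other ubiquitin enzymes and APC/C modifiers, 13 were in the table, with 6 higher and 1 lower in the E2F1 line and 7 higher and 2 lower under serum. The same shares of all genes apply to these counts. Bub1b, whose product BubR1 is part of the mitotic checkpoint complex that holds the APC/C in check, rose by 2.28 in the E2F1 line (adjusted p 2.06e-06 in limma). Mad2l1, of the same checkpoint, rose by 1.62 under serum (adjusted p 3.39e-05 in limma). The conjugating enzyme genes Ube2r2 and Ube2d1 had the lowest called values, -0.42 in the E2F1 line and -0.25 under serum.

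All 20 APC/C substrate genes were in the table, and at 12 h 20 were called higher in the E2F1 line (median log2 change 2.28), 11 higher and 1 lower under serum (median 1.00), and 18 lower in the EV line with doxycycline (median -1.34). The EV replicates differed for these genes, with mean log2 levels of 9.78 and 10.63 at 0 h and 8.63 and 9.11 at 12 h of doxycycline. How far the serum and EV counts rest on single libraries is not given here. At 6 h in the E2F1 line 7 of the 20 were called higher, against 28.8% of all genes. Rrm2, a subunit of ribonucleotide reductase, rose by 3.65 at 12 h in the E2F1 line (adjusted p 1.11e-09 in limma), and Cdc6, a replication licensing factor, had the smallest rise there (1.56) and the largest under serum (3.33). Ccnb2, a mitotic cyclin, had -0.98 under serum (adjusted p 0.017). Of 18 SCF substrate genes, 17 were in the table, with 14 higher and 2 lower in the E2F1 line (median 1.29), 13 higher and 3 lower under serum (median 1.43), and 7 lower in the EV line with doxycycline. Ccne1, cyclin E1, rose by 4.06 and 3.15 in the E2F1 line and under serum. Myc had -0.97 in the E2F1 line, and Cdkn1b, which encodes the SKP2 target p27, had -0.98 under serum (adjusted p 1.08e-07 in limma). The counts are read against 31.8% and 29.7% of all genes called higher and lower in the E2F1 line, 36.0% and 29.7% under serum, and 0.749% and 3.42% in the EV line.

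**Figure D5:**
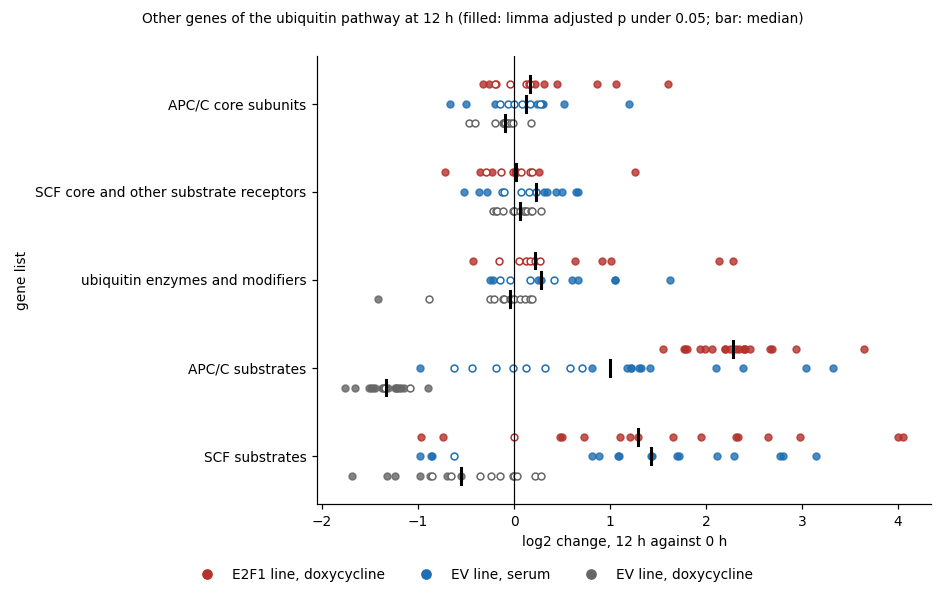
Log2 change from 0 to 12 h of the genes in 5 lists, for the E2F1 line with doxycycline (red), the EV line with serum (blue) and the EV line with doxycycline (grey). Each point is a gene, filled where it passed in limma, and black bars are medians. The medians of the APC/C substrates stand at 2.28, 1.00 and -1.34, while those of the core subunits stand at 0.16, 0.13 and -0.10.

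The authors' deposited table for 12 h in the E2F1 line lists 4 of the 10 genes, with log2 fold changes of 3.27 for Ccnf, 3.09 for Fbxo5, 2.28 for Skp2 and 2.14 for Ube2s. The authors' deposited table for 6 h lists 2, Ccnf at 2.42 and Fbxo5 at 2.40. In the authors' deposited tables for the other 7 comparisons 0 of the 10 are listed. These tables hold selected genes only, 510 and 264 for the E2F1 line at 12 and 6 h and 726 for serum at 12 h. Absence from them does not mean that a gene was unchanged.

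Reads of some members could be shared with other genes. Cdc20, Fzr1, Ube2c, Ube2s and Skp2 overlap a gene on the opposite strand, and the sources used here do not say whether counting used strand. The shared exon sequence was 592 of 2600 bases for Ube2c (with Tnnc2, which is not among the genes of the table), 183 of 5141 for Ube2s (with Rpl28), 53 of 1868 for Cdc20 (with Elovl1), 4 of 4488 for Fzr1 and 0 of 7875 for Skp2. Transcripts at least 90% identical over at least 200 bases came from 1 other gene for Cdc20, 3 for Cks1b, 5 for Cks2, 3 for Fbxo5 and 2 for Ube2c. These are processed pseudogenes except Cks1brt for Cks1b and Glcci1 and Gm45062 for Fbxo5, the last pair being 91.2% identical to it over 1759 of 1940 bases. Of all these genes only Gm15452, which is identical to Cks2 over 240 bases, is in the table. The counts of these genes are uncertain to that extent.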

How the data were processed

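RNA of 22 libraries of starved and stimulated NIH/3T3 cells was sequenced as 150 bp paired-end reads after polyA selection, per the labels' protocols. The submitters' processing notes name FastQC, Trimmomatic, HISAT2, featureCounts, DESeq2 and the mouse build mm10, without versions, and the strand setting of the counting is not given in the sources used here. The deposited score values are normalized counts per gene, scaled by the authors and rounded to whole numbers, for 11208 genes. The authors' deposited comparison tables give log2 fold changes and adjusted p-values for selected genes. Their unit is not raw counts, so no count test was run, and the scaling keeps no exact depth.

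Groups and replicate numbers came from the labels. All 22 libraries were fitted together with limma 3.58.1 in R 4.3.3 on log2(value + 1), with 11 group means, 11 residual degrees of freedom, a mean-variance trend and empirical Bayes moderation. P-values are two-sided, adjusted by Benjamini-Hochberg over all genes of a comparison, with a threshold of 0.05. Differences of changes were contrasts in the same fit. On simulated data for the 12 h comparison in the E2F1 line, with 11208 genes, 82 of 100 genes changed 2-fold and 97 of 100 changed 4-fold were called in the right direction, and 9 unchanged genes were called. Only these changed genes were altered there, while in the data 31.8% of genes were called higher and 29.7% lower. The simulated noise was also independent between genes and libraries. Differences between replicates that many genes share, as in the EV line, were thus not covered. The 10 genes and the 5 lists were chosen with earlier results of these data known, so they are no independent support. All 10 genes were described, and in each list those called with the largest and smallest log2 change at 12 h in the E2F1 line and under serum were named, up to 4 a list; 1 gene this rule selects is not reported here. Likeness is the Pearson correlation of group means of log2(value + 1).

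Positions are from GENCODE M21 (GRCm38, the same assembly as mm10), in which 10977 of 11208 identifiers occurred with the same version. Promoter sequence is from RefSeq (GRCm38.p6). Near copies were sought with blastn 2.17.0 among GENCODE transcripts. Python 3.11.15, pandas 2.3.3, numpy 2.4.6 and matplotlib 3.10.9 were used for tables and figures. Alternatives were a pseudocount of 8, genes with a mean of at least 500, quantile normalization, equal totals, no trend, replicate blocks, only the groups compared, no doxycycline 2 h libraries, at least a 2-fold change, and each library left out in turn.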

Additional observations from a re-analysis of the deposited data

Results flagged for a closer look

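Differences of changes that passed in limma mark genes whose response depended on the line or the stimulus. Each is the log2 change of the E2F1 line minus the other change at the same time, with adjusted p below 0.05 over all genes. No group held enough libraries for a check of single outlying samples.

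Against the EV line with doxycycline, the inhibitor gene Fbxo5 differed by 3.06 at 6 h and 4.25 at 12 h, and the F-box genes Ccnf by 2.67 and 4.28 and Skp2 by 2.19 and 2.82. Ube2s differed by 1.18 and 2.51, and Fzr1 by 0.65 and 1.65. At 12 h the differences were 2.97 for Ube2c, 2.73 for Cdc20, 2.71 for Cks2, 2.30 for Pttg1 and 1.22 for Cks1b. All 10 log2 changes from 0 to 12 h were above 0 in the E2F1 line and below 0 in the EV line under doxycycline. Part of each 12 h difference is thus the lower level in the EV line, where the 12 h libraries of Pttg1 overlapped those of 0 h.

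Against serum, Ccnf differed by 2.68 at 6 h and 2.52 at 12 h, Fbxo5 by 2.91 and 1.28, Skp2 by 1.09 and 0.60, Fzr1 by 0.80 and 1.77, and Ube2s by 0.46 and 1.43. Cks1b differed by -0.52 at 6 h. At 12 h the differences were 1.83 for Cdc20, 1.74 for Pttg1, 1.52 for Ube2c and 1.26 for Cks2. Fbxo5 and Skp2 had the larger difference at 6 h, and Fzr1 and Ube2s the larger one at 12 h, which was not tested.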

How the results depend on the processing

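The rises in the E2F1 line at 6 and 12 h, and the 12 h differences from the EV line, kept their counts of 5, 10 and 10 genes under every alternative except that of at least a 2-fold change. No called change of a member took the opposite sign. Of 1500 recomputed member values with every library, or without the 2 h ones, 33 lost the call, 13 gained it and 13 changed sign uncalled. Leaving out 1 library, where the lone library is assumed to vary like the others, 53 of 880 lost it, 17 gained it and 80 changed sign uncalled. With only the groups compared, 3 genes were higher at 2 h in the E2F1 line (0 otherwise), 0 were lower in the EV line at 12 h of doxycycline (6 otherwise), 1 was lower at 6 h of serum, 0 had the smaller 6 h change in the E2F1 line than under serum and 0 differed between lines at 0 h. Without a trend these counts were 3 for the EV line at 12 h, 1 for serum at 6 h and 0 for the 6 h difference. Equal totals gave 5 lower at 2 h of serum, 4 lower at 6 h and 0 for the 6 h difference, and quantile normalization 1 lower at 6 h of serum. With at least a 2-fold change, 5 rose from 6 to 12 h in the E2F1 line, 3 were lower in the EV line at 12 h, 1 was higher and 0 lower at 2 h of serum, 0 and 0 at 6 h, 2 and 0 at 12 h, 2 rose from 6 to 12 h of serum, 3 were higher and 0 lower in the 6 h difference from serum, and 0 differed at 0 h. Leaving out each replicate in turn gave 7 to 8 genes for 6 to 12 h in the E2F1 line, 0 to 1 higher at 2 h and 0 to 8 lower at 12 h of doxycycline in the EV line. Under serum it gave 1 to 5 lower at 2 h, 0 to 5 lower at 6 h, 0 to 1 lower at 12 h, and 3 to 5 higher and 0 to 1 lower from 6 to 12 h. For the difference from serum it gave 0 to 1 lower at 6 h and 0 to 1 lower at 12 h, and for the lines at 0 h 0 to 1 higher. The cause was not tested, beyond the smaller number of libraries. Medians of all genes moved by over 0.1 also in the serum step from 6 to 12 h (0.13 with equal totals) and in the differences from the EV line (-0.10 and -0.11 at 6 h, -0.12 at 12 h under quantile normalization).

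The libraries were not treated as paired by replicate number, since not every pair of groups was alike: the correlation between groups of the differences between replicates 1 and 2 ran from -0.366 to 0.590 over 55 pairs of groups, with 20 above 0.1. Among the EV groups at 0, 6 and 12 h of doxycycline and 6 h of serum, in which all 10 genes were higher in replicate 2, all correlations were above 0.1, from 0.118 to 0.590. With the replicate block, over all groups or within each line, 7 genes instead of 6 were lower in the EV line at 12 h of doxycycline, the added gene being Ccnf (adjusted p 0.0322 and 0.0209 in limma, 0.0579 without the block), and no other call of a member changed.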
